A study of Arabidopsis thaliana with 2 samples.

Results

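The introns described here lie in the 5′ untranslated region (5′ UTR), the stretch of an mRNA between its cap and its start codon. An intron was taken when RefSeq's annotation of the TAIR10.1 genome places it wholly upstream of the most upstream start codon of a nuclear protein-coding gene, and when at least 5 reads of the same strand covered all 10 nt on both of its sides in each of 2 libraries. Of 131152 annotated introns of nuclear protein-coding genes, 7015 lie in a 5′ UTR by this definition, and 1488 of these, in 1232 genes, had the reads. Both libraries are PacBio Iso-seq libraries, in which single cDNA molecules are read from end to end, and each was made from total RNA of wild-type Arabidopsis thaliana Col-0 inflorescences with unopened floral buds. They are biological replicates of 1 group, so no treatments, genotypes or stages were compared. The labels and methods name no transgene and no treatment.

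Splicing removes an intron from the pre-mRNA at a 5′ splice site, which nearly always begins with GT, and a 3′ splice site, which nearly always ends with AG. An intron in the 5′ UTR does not alter the protein, but it sets the length and the sequence of the leader that the ribosome scans on its way to the start codon. Several plant 5′ UTR introns, among them those of polyubiquitin, actin and EF1A genes, are known to raise the output of their gene and are widely used in expression vectors. The long reads show the cap end, the intron and the start codon on the same molecule.

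The sequences at the ends of the introns are shown first for the genes whose splicing the later values turn on. Each line runs 5′ to 3′ on the strand of the gene and comes from RefSeq's TAIR10.1 assembly. In the first set, of 5′ splice sites, 8 nt of exon precede 20 nt of intron, and the capitals are the first 2 bases of the intron. UBQ10 encodes a polyubiquitin, and AT5G60390 encodes the translation elongation factor EF1A and has a pair of annotated 5′ splice sites 4 nt apart. FAD2 encodes an oleate desaturase, and AUD1, ENDO3 and GDH2 hold introns that most reads did not splice.
UBQ10: tgatcaagGTaaatttctgtgttcctta
AT5G60390, site used by the reads: acttgcagGTtagatattttctctcttt
AT5G60390, annotated site used by no read: tcttacttGCaggttagatattttctct
FAD2: atctccagGTccgtcgcttctcttccat
AUD1: cgttcaagGTccgactcagttcccggcg
ENDO3: tgaatcagGTtctcattgtttatacact
GDH2: tacaatcgGTaaatttctccgatcacga

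In the second set, of 3′ splice sites, 20 nt of intron precede 8 nt of exon and the capitals are the last 2 bases of the intron. The exon of UBQ10 and of UBQ3 opens with the start codon itself. RP1 is shown at the first and at the last of its 5 annotated 3′ splice sites.
UBQ10: tgagtttttctgattaacAGatgcagat
UBQ3: gttctattgttttatttcAGatgcaaat
RP1, first site: ttgtattactgttgatgtAGaagaagaa
RP1, last site: tgatgtagaagaagaagaAGaagaatgt
AUD1: tttctatctttcgattctAGatctagaa
GDH2: tttttttttgttccataaAGttcgaatt

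Replicate 1 held 267716 aligned reads and replicate 2 held 255215, and 55.9% and 57.3% of their nuclear reads carried the cap label, which marks an untemplated G upstream of the read's 5′ end. Genes that mark floral organs were read in both libraries, with 133 ± 0.830 RPM, the reads of a gene per 1000000 reads assigned to genes (SD, n = 2), for AP1, 74.8 ± 17.2 RPM for AP3, 209 ± 16.7 RPM for PI and 325 ± 6.81 RPM for SEP3. The root endodermis gene CASP1 and the seed storage genes CRA1 and SESA1 had 0 reads in both. In bulk tissue, fewer cells of a type and less RNA per cell cannot be told apart. The introns that passed had a median of 12 covering reads in replicate 1 and 12.75 in replicate 2. Reads of 1 library give a precision that covers counting error only, and a single intron with 12 reads is known coarsely. In 202 of the 1488 introns the lower library held 5 to under 6 covering reads, and a further 274 annotated 5′ UTR introns missed the minimum with 4 to under 5.

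Most genes contributed 1 intron: 1023 genes held 1, 172 held 2, 28 held 3, 8 held 4 and 1, RP1, held 5. Some of these are alternatives to each other, because 350 of the introns overlap another one and form 164 overlapping groups, so that the 1488 introns occupy 1302 separate places. In both libraries, 1336 introns were seen spliced at exactly the annotated sites. In neither library did any read splice 82 of them at those sites.

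Introns of the 5′ UTR were long for this genome. Their median length was 288 nt, with quartiles at 139.75 and 443.25 nt, against a median of 99 nt for the 35611 coding introns that passed the same read minimum. Of the 5′ UTR introns, 64.6% had 200 nt or more, against 19.8% of coding introns. First introns of plant genes tend to be long, and the first coding introns had a median of 155 nt. Within them, the median was 108 nt in genes that also have a 5′ UTR intron and 177 nt in genes without one. Introns after the first coding intron had a median of 96 nt, and the 333 introns of 3′ UTRs a median of 106 nt. Lengths are a property of the annotation and carry no error over libraries. Among all annotated introns, whatever their reads, the medians were 231 nt in 5′ UTRs and 99 nt in coding regions.

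**Figure D1:**
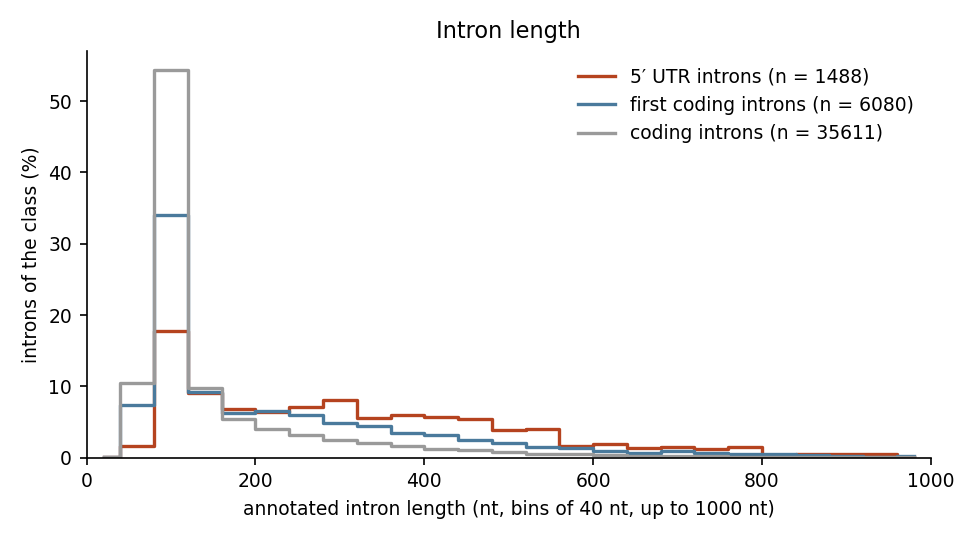
Share of introns in each 40-nt bin of annotated length (x axis in nt, up to 1000 nt; y axis in percent of the class) for 5′ UTR introns, first coding introns and all coding introns past the read minimum. The coding introns peak at the left, with a median of 99 nt, while the 5′ UTR introns spread out to beyond 400 nt around a median of 288 nt.

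The longest intron, of 2328 nt, belonged to AT4G08460, a gene of unknown function. It was removed exactly in 8 and 6 reads, with 0 unspliced reads in either library. A further 10 and 4 reads there spliced an overlapping intron at other sites. RIP5, which encodes a partner of ROP GTPases, has an intron of 1586 nt that was spliced in 9 and 8 reads. OTLD1 encodes an OTU-like cysteine protease of the deubiquitinase family and holds the remaining introns among the 4 longest. These share their 5′ splice site, and at least 1 read used the 1674-nt form in each library, while most reads of OTLD1 took a shorter 1530-nt intron (7 and 7.5 reads). None of the 4 longest introns had an unspliced read in either library.

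The shortest annotated introns were not spliced at all. An interval of 10 nt in VSR4, a vacuolar sorting receptor gene, was left in 5 and 13 reads, and a 14-nt interval in AT5G49645 was left in 14 and 11. Neither had an exactly spliced read, and whether annotated intervals this short are introns at all was not tested. The next in length, a 67-nt intron of OTLD1, had 0 spliced reads against 8 and 7.5 unspliced ones. By contrast, the 69-nt intron of RABA5a, a RAB GTPase gene, was spliced in 7 and 6 reads.

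The 3′ splice site lay near the start codon. The distance between them was counted in exon, and the shortest was taken where annotated transcripts differ. It had a median of 25 nt and quartiles of 11 and 54 nt. In 342 introns (23.0%) it was at most 10 nt, in 849 (57.1%) at most 30 nt, and in 168 above 100 nt. In 40 introns the start codon followed the 3′ splice site directly. All 5 polyubiquitin genes of the list of known 5′ UTR introns belong to these 40, as the UBQ10 and UBQ3 sequences above show.

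Upstream of the intron the leader was longer. Among 854 introns with at least 5 spliced cap-labelled reads in each library, the median start lay 97 nt of exon upstream of the 5′ splice site in both replicates. The 10th and the 90th percentile over introns averaged 48.5 and 212 nt. In 653 of the 854 introns (76.5%), the libraries placed this start within 10 nt of each other. With reads that have a 5′ label without the untemplated G, the median was 88.5 nt over 353 introns. At the 336 introns that have both kinds of read, however, the medians were 87.5 ± 1.41 nt without the untemplated G and 87.25 ± 1.77 nt with it (SD, n = 2).

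**Figure D2:**
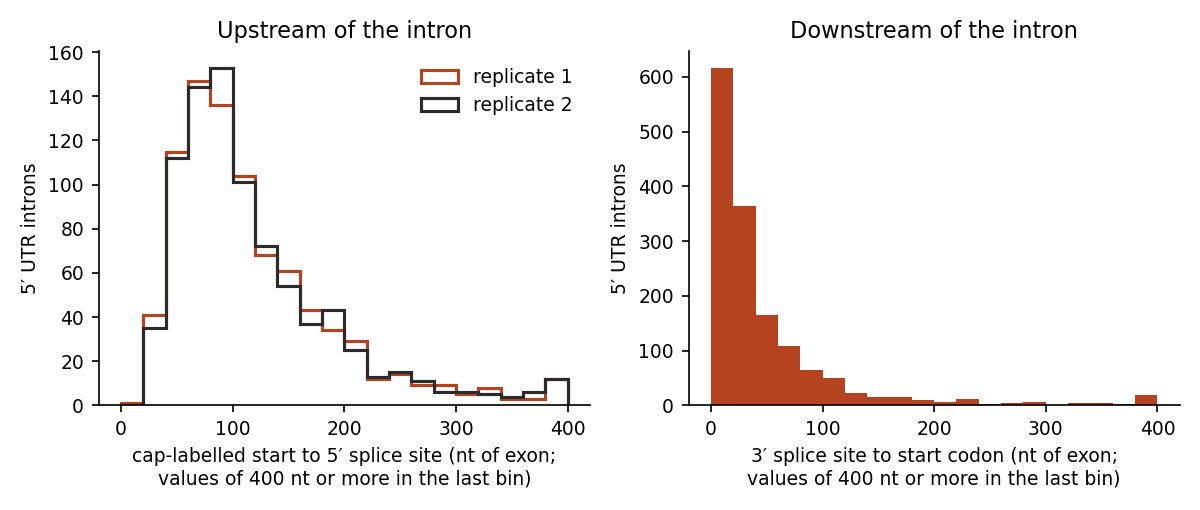
Left, number of 5′ UTR introns (y axis) by the distance in exonic nt from the median cap-labelled start to the 5′ splice site, for each replicate. Right, number of introns by the distance in exonic nt from the 3′ splice site to the start codon, the shortest over annotated transcripts. The left distribution centres on a median of 97 nt and the right one falls from its first bin, with a median of 25 nt.

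The intron ends had the usual sequence. GT and AG bounded 98.9% of the 5′ UTR introns and 98.7% of coding introns, while GC and AG bounded 1.14% of each. AT and AC stood at the ends of 0 of 1488 5′ UTR introns and 38 of 35611 coding introns, too rare a class to compare. The introns were rich in T, with a median of 43.3% in 5′ UTRs and 40.8% in coding regions. At least 1 ATG, the triplet of a start codon, stood in 1268 of the 5′ UTR introns (85.2%). The share was 87.3% in coding introns and 88.2% in first coding introns. The median number was 4 per 5′ UTR intron against 2 in the shorter coding introns.

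A motif that is known from introns of highly expressed Arabidopsis genes, TTNGATCTG or TTNGATTTG, was searched on the sense strand in the first 100 nt of introns of at least 100 nt. It stood in 72 of 1310 5′ UTR introns (5.50%), against 2.53% of coding introns and 5.23% of first coding introns. In later coding introns the share was 1.69%. On the opposite strand of the same windows it was 0.840% in 5′ UTR introns and 0.474% in coding introns. A match is a description of the letters only.

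Splicing efficiency was measured as the reads spliced at exactly the annotated sites over these plus the reads left unspliced, among reads that cover 10 nt on both sides. It could be judged at 1291 introns with at least 5 such reads in each library. Most introns of the 5′ UTR had no unspliced read: 964 (74.7%) had none in either library, and 1076 were above 90% in both. Within a library, introns without an unspliced read made up 81.4% ± 0.493 in 5′ UTRs and 90.5% ± 0.508 in coding regions (SD, n = 2). The mean over introns was 93.4% ± 0.0125 in 5′ UTRs, 98.3% ± 0.0429 in coding regions and 97.2% ± 0.0293 in first coding introns (SD, n = 2). Introns of 3′ UTRs were lower, at 73.0% ± 0.236.

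The difference in mean efficiency of 5′ UTR introns was -4.90 ± 0.0554 percentage points from coding introns and -3.81 ± 0.0168 points from first coding introns (SD, n = 2), with the same direction in both libraries. Both differences exceed the spread between the replicates. An exact sign-flip permutation test over 2 libraries cannot go below p = 0.5 (two-sided), which is the value it gave. The difference depended on depth. With at least 20 covering reads in each library, the mean was 97.2% ± 0.0970 over 286 introns of 5′ UTRs and 98.2% ± 0.0241 over coding introns, a difference of -0.95 points. When reads were summed, so that deeply read genes weigh more, the efficiency was 96.6% ± 0.236 in 5′ UTRs and 97.4% ± 0.0648 in coding regions.

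The gap lay in introns of up to 288 nt. In the shortest quartile of the 5′ UTR introns, of up to 139 nt, mean efficiency was 82.9% ± 0.107, against 98.4% ± 0.0355 in coding introns of the same lengths. From 140 to 288 nt it was 94.3% ± 0.373, against 98.0% ± 0.0135 in coding introns. From 289 to 443 nt the values were 98.2% ± 0.212 in 5′ UTRs and 98.2% ± 0.0444 in coding regions, a difference smaller than the spread between the replicates. Above that length they were 99.3% ± 0.243 in 5′ UTRs and 98.4% ± 0.349 in coding regions. The low value of short 5′ UTR introns was also present at depth, with 92.4% ± 0.0435 over 74 introns with at least 20 covering reads, against 98.3% ± 0.0165 in coding introns of that length. From 140 to 288 nt the direction turned at this depth, with 97.7% ± 0.515 over 74 introns of 5′ UTRs and 97.1% ± 0.0177 in coding introns.

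**Figure D3:**
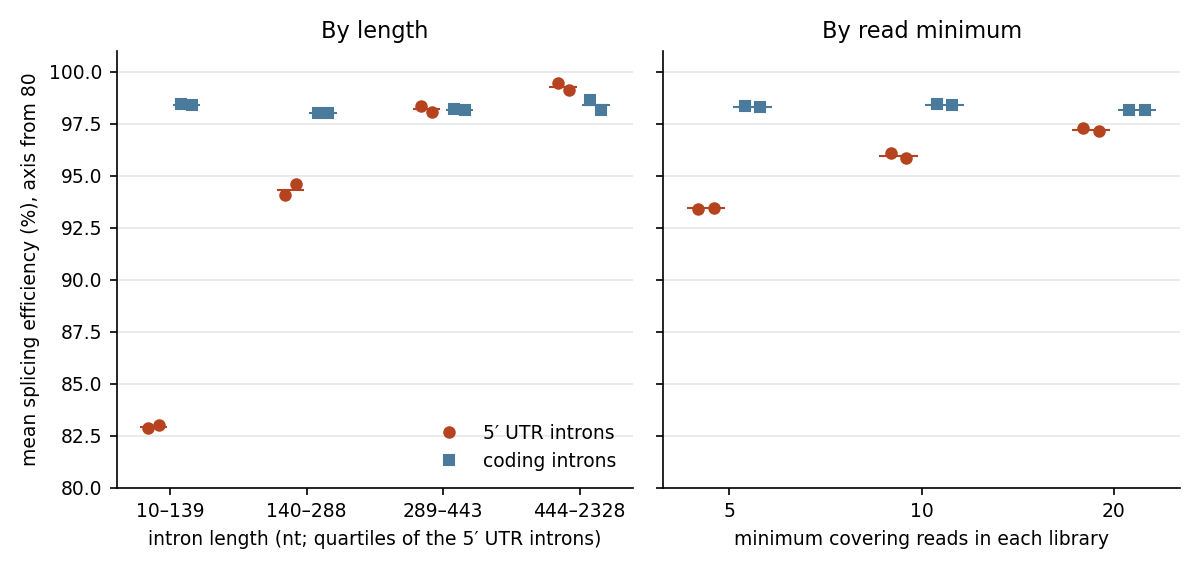
Mean splicing efficiency (y axis in percent, starting at 80) of 5′ UTR introns and coding introns by intron length (left, in nt) and by the minimum of covering reads in each library (right). Each symbol is 1 library and the line is their mean. The 5′ UTR introns of up to 139 nt stand at 82.9%, and those of 289 nt or more lie beside the coding introns.

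A minority of 62 introns (4.80% of those judged) were spliced in at most 50% of reads in both libraries. Over all judged introns of every class, 1.28% were. Of the 62, 49 were at most 140 nt long and 28 had no exactly spliced read in either library. Only 14 of the 62 overlap another 5′ UTR intron. Leaving out every intron that was not seen exactly spliced in both libraries gave means of 96.7% for 5′ UTR introns and a difference of -2.40 points from coding introns treated alike.

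Among introns with at least 20 covering reads in each library, those spliced least were in genes of varied function. In AT1G72820, a mitochondrial carrier family gene, 0 reads were spliced and 21 and 24 were unspliced. In AUD1, which encodes a UDP-glucuronate decarboxylase that makes UDP-xylose for the cell wall, 0 reads were spliced and 37 and 26 were not. Both introns have GT and AG at their ends, as shown for AUD1.

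GDH2 encodes a glutamate dehydrogenase subunit. Its 111-nt intron was spliced in 9 and 10 reads and unspliced in 24 and 39. ENDO3, an endonuclease gene, had 4 and 1 spliced against 33 and 19 unspliced reads. In AT3G51370, a protein phosphatase 2C family gene, the numbers were 3 and 1 spliced against 31 and 20 unspliced reads. All 3 were mostly unspliced in both libraries.

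A pair of introns stood near the middle. AT1G80780, which belongs to a ribonuclease H-like family, had 11 and 12 spliced against 13 and 14 unspliced reads. AT5G36290, of the UPF0016 membrane protein family, had 15 and 20 spliced against 11 and 7 unspliced reads, so that the libraries differed more here. The eighth intron of lowest efficiency, the 503-nt form in AT5G60390, rests on 1 unspliced read, and nearly all other reads there used the site 4 nt downstream.

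Most reads that kept a 5′ UTR intron had other introns removed. In the counts and shares that follow, a read enters once for each 5′ UTR intron it covers. The cap label was carried by 67.1% ± 2.10 of unspliced reads and by 68.2% ± 0.525 of spliced reads, a difference smaller than the spread between replicates. A 3′ label, which marks a poly(A) tail, was present on 85.7% ± 0.507 of unspliced and 93.0% ± 0.112 of spliced reads. Of the unspliced reads that also cover a coding intron, 796 in replicate 1 and 871 in replicate 2, at least 1 coding intron had been removed in 95.2% and 94.8%.

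The same reads allow neighbouring introns to be compared with each other. For each pair of neighbouring annotated introns, reads that left only the upstream one unspliced were set against reads that left only the downstream one, in an exact McNemar test with Benjamini-Hochberg adjustment over 1076 pairs of all genes, and a call also needed the same direction in both libraries. Of 164 tested pairs of a 5′ UTR intron and the next coding intron, the 5′ UTR intron was left unspliced more often in 110 (67.1%, in 90 genes) and the coding intron in 47 (28.7%, in 40 genes). Some of the 164 pairs hold an annotated 5′ UTR intron below the read minimum, so these counts are not confined to the 1488 introns. Over all 1076 pairs, the upstream intron was called in 43.4% and the downstream intron in 51.6%. In pairs of 2 coding introns, the shares were 40.5% for the upstream and 53.9% for the downstream intron of 571 pairs. The difference between the kinds of pair was not tested. Calls of 5′ UTR and coding introns lay closer with replicate 1 alone, at 34 and 27. Over all reads of such pairs, 4.21% in replicate 1 and 5.01% in replicate 2 left only the 5′ UTR intron, against 5.56% and 4.81% that left only the coding intron, so that summed reads had no common direction in the libraries.

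In GDH2, 24 and 39 reads kept only the 5′ UTR intron and 0 kept only the next coding intron. AUD1 had 36 and 23 such reads against 0, and ENDO3 had 29 and 15 against 0. These genes were picked for low efficiency in the same reads, so no p-value is given for them. In AUD1 no read spliced the 5′ UTR intron, so its reads could differ only in this direction. Calls in the other direction included SKIP, which encodes a splicing factor. There, 0 reads kept only the 5′ UTR intron and 19 and 27 kept only an annotated coding intron, which no read of the pair spliced. Many introns in such calls are annotated but were scarcely used. In 68 of the 110 calls the 5′ UTR intron, and in 38 of the 47 calls the coding intron, was not seen exactly spliced in both libraries. Such coding introns include 4 annotated ones in UBQ10. With pairs in which both introns were seen exactly spliced in both libraries, 42 of 54 pairs were called for the 5′ UTR intron and 9 for the coding intron.

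Splicing of single introns was also compared between the replicates. Fisher's exact test on unspliced against spliced reads, replicate 2 against replicate 1, called 0 of 657 introns of 5′ UTRs after Benjamini-Hochberg adjustment over 19574 introns of every class, of which 0% were called. At an unadjusted p under 0.05 there were 2 in 5′ UTRs and 14 in all. At 10 reads per library not even a complete switch passes this adjustment when no other intron is called, so such introns could not be called. With slightly more reads only a near-complete switch can pass, so smaller differences were not detectable there. Of the 1291 judged introns, of which 964 had no unspliced read at all, 1161 differed by at most 10 percentage points between libraries, 25 by over 25 points and the most by 57.1 points.

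Reads spliced at sites other than those of the annotated intron considered were more frequent in 5′ UTRs than in coding regions. Of the 1488 introns, 298 (20.0%) had at least 2 reads in each library that spliced an overlapping intron with another 5′ or 3′ splice site, against 1003 of 35611 coding introns (2.82%). The share over introns of every class was 3.8%. Introns of 3′ UTRs were nearer to those of 5′ UTRs, with 46 of 333 (13.8%). Overlapping annotated introns count here as alternatives to each other. In 45 introns with at least 5 such reads in each library, every spanning read was at another site. When only the qualifying intron with the most exactly spliced reads was taken from each overlapping group, a choice that rests on these reads, 122 of 1302 (9.37%) qualified, against 0.989% of coding and 1.31% of first coding introns chosen in the same way. Reads at other sites then made up 3.55% ± 0.0452 of spanning reads in 5′ UTRs and 0.612% ± 0.0112 in coding regions.

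Each change was at 1 end of the intron. At 108 of these 1302 introns, 110 other junctions had at least 2 reads in each library: 71 with another 3′ splice site, 39 with another 5′ splice site and 0 with both changed. Of these junctions, 106 are themselves annotated and 107 have GT and AG at their ends. The alignments were guided by annotated junctions. At 17 of the 110, the other junction, which is not itself one of the 1488 introns, had more reads over both libraries than the qualifying intron. Other 3′ splice sites lay close by, with a median shift of 6 nt, and 43 of 71 were within 10 nt. A shift of 3 nt was most frequent (21 junctions) and 7 had a shift of 4 nt. Other 5′ splice sites had a median shift of 44 nt, with 7 of 39 within 10 nt. No exon inside one of these introns was seen with at least 2 reads in each library.

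**Figure D4:**
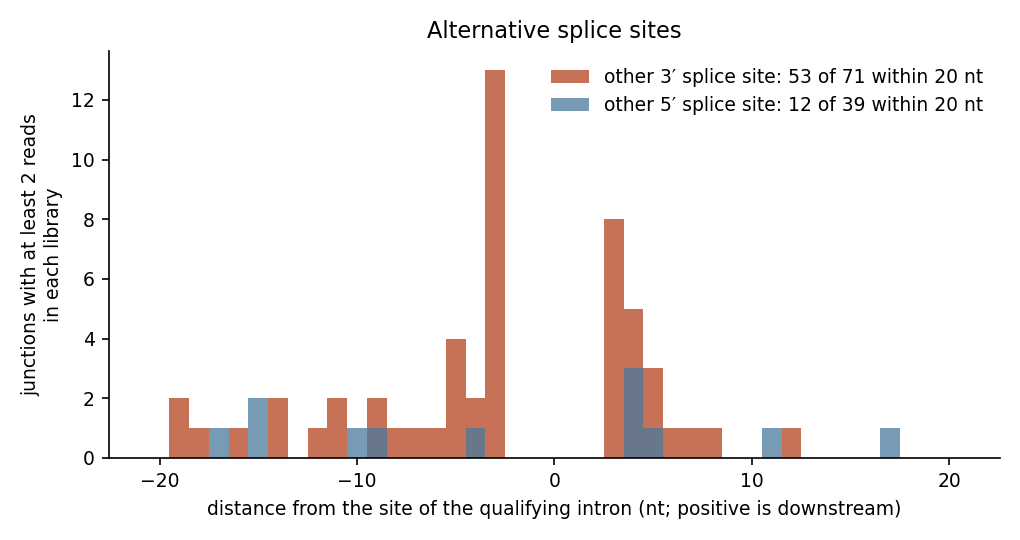
Number of junctions with at least 2 reads in each library (y axis) by their distance in nt from the splice site of the qualifying 5′ UTR intron they overlap (x axis, negative values upstream). Other 3′ splice sites cluster at 3 nt on both sides of that site, and 12 of the 39 other 5′ splice sites fall within 20 nt.

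Examples of neighbouring 3′ splice sites, chosen after their values were seen, show AG dinucleotides 3 or 4 nt apart. The windows run from 14 nt before the end of the shorter intron to 6 nt after that of the longer one, and the capitals are the last 2 bases of each form of the intron. They lie at chr2:8511725-8511748 on the plus strand (AT2G19730), chr2:2322833-2322855 on the plus strand (MOD1), chr1:519019-519041 on the plus strand (SAM1) and chr4:8520058-8520080 on the minus strand (OASA1).
AT2G19730: ttggtgtggtgaAGgtAGgtattt
MOD1: atttgttgttttAGtAGaagaaa
SAM1: tctattctttgtAGcAGaatgga
OASA1: tttgtgaatttaAGcAGtgaagc

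AT2G19730 encodes a ribosomal protein of the L28e family. Its downstream AG was used by 80 and 61 reads and its upstream AG by 41 and 71, so that the more used site changed between the libraries. MOD1, the enoyl reductase of fatty acid synthesis in plastids, used the upstream AG in 45.5 and 45 reads and the downstream AG in 39 and 32. SAM1 encodes S-adenosylmethionine synthetase, and 129 and 135 of its reads took the downstream AG against 19 and 9 at the upstream AG. OASA1, an enzyme of cysteine synthesis, had 24 and 33 reads at the downstream AG and 17 and 14 at the upstream one. In the last 3 genes, the same site was ahead in both libraries.

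RP1, a ribosomal protein gene, has 5 annotated 3′ splice sites at steps of 3 nt within a run of AAG repeats, visible in its sequences above. The first site took 496 and 414 reads, the second 13 and 11, and the 3 others 0 in both libraries. CSD1, which encodes a copper/zinc superoxide dismutase, has 3′ splice sites 9 nt apart: the 488-nt intron took 55 and 45 reads and the 497-nt intron 0. The same was seen in UBC34 (12 and 10 reads against 0), DRG1 (18 and 16 against 0), TRM9 (6 and 8 against 0), AT1G35490 (26 and 15 against 0) and CINV1 (19 and 11 against 0), in each of which a neighbouring annotated intron took the reads. These 6 genes stand first by identifier among the 45 introns at which every spanning read used another site.

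The known 5′ UTR introns were spliced almost completely. Polyubiquitin genes had 225 and 194 spliced reads in UBQ10, 126 and 127 in UBQ3, 115 and 83.5 in UBQ11, 66.25 and 38 in UBQ14 and 30 and 29 in UBQ4, with at most 1 unspliced read in any library. In AT5G60390, the most covered intron of all, 1312.33 and 1013 reads used the GT site and 0 used the annotated GC site. The EF1A genes are near-identical copies, and fractional counts come from reads split between alignments, so their values are uncertain. AT1G07930 had 89 and 88 spliced reads and AT1G07920 had 5.5 and 5.5. AT1G07940, the remaining EF1A gene, had 3 annotated 5′ UTR introns, none of which passed.

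All 8 actin genes of the list held such an intron. ACT7, ACT2 and ACT8, which are expressed in vegetative tissue, had 295 and 220, 88 and 92, and 59.25 and 74 spliced reads. The reproductive actins ACT1, ACT3, ACT11, ACT12 and ACT4 had between 10 and 38 spliced reads per library at their most used introns. No actin intron had an unspliced read in either library. ACT1 used a pair of 3′ splice sites 4 nt apart, with 31.5 and 18 reads at the upstream and 6 and 4 at the downstream site.

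FAD2, the endoplasmic reticulum desaturase that forms linoleic acid, has an intron of 1131 nt that ends 4 nt before the start codon, and 375 and 307.5 reads were spliced with 0 unspliced in either library. The subunit Vc genes of cytochrome c oxidase, the last enzyme of the respiratory chain, had 18 and 18 spliced reads in AT2G47380 and 17 and 10 in AT3G62400. The third of them, AT5G61310, had 1 and 3 spliced against 2 and 2 unspliced reads, too few to judge. MHX, a vacuolar exchanger of protons with magnesium and zinc, had 11 and 15 spliced reads. SUVH3 and AT2G48020 have annotated 5′ UTR introns that did not reach the read minimum.

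Among 14 floral regulators on the list, AGAMOUS, the MADS-box gene of stamen and carpel identity, was the one with a qualifying intron. Its 555-nt intron ends 5 nt before the start codon and was spliced in 23 and 17 reads, with 0 unspliced in either library. AP2 has an annotated 5′ UTR intron with too few covering reads, and the other 12 have none by the definition used here.

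SAMDC, the S-adenosylmethionine decarboxylase of polyamine synthesis, has a leader with upstream open reading frames and 3 introns in it. They were spliced in 701.83 and 757, 660.83 and 697.5, and 719.83 and 771 reads in order from the cap, with 1 unspliced read in all, at the last in replicate 1. The last ends 175 nt of exon before the start codon. AT1G01830, an ARM repeat protein gene, has 4 such introns that were each spliced in at least 4 reads per library.

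At the introns that passed, transcripts seldom began downstream of the 5′ splice site. An intron passed only with at least 5 reads in each library on both of its sides, so the read minimum itself selects for starts upstream. The shares therefore do not describe annotated 5′ UTR introns in general. Of cap-labelled reads that reach the start codon, a mean over 1134 introns of 97.0% ± 0.112 began upstream of the intron, 2.53% ± 0.0107 inside it and 0.494% ± 0.123 downstream of it (SD, n = 2). At 832 introns every such read began upstream in both libraries. A start inside the intron was seen in both libraries at 89 introns, and at 8 introns under 50% of reads began upstream in both.

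Among introns with at least 20 such reads in each library, that of AT1G78040, which encodes a protein of the pollen Ole e 1 family, had the lowest share of starts upstream. Of its 72 and 51 cap-labelled reads, 65 and 47 began inside the 85-nt annotated intron, and 9.72% and 7.84% upstream of it. None of the reads that covered the intron spliced it, with 11 and 6 unspliced. In AT2G33620, an AT-hook DNA-binding protein gene, 17 of 26 and 11 of 20 reads began inside a 689-nt intron. The 14 and 15 reads that crossed this intron were all spliced. Annotated 5′ UTR introns of 364 and 276 nt share its 3′ splice site. Each of these was left unspliced in 8 and 6 reads that spliced the next coding intron.

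AT3G03780, methionine synthase 2, had 60.0% and 69.2% of starts upstream, with 12 and 12 reads that began inside. AT3G11980, the MALE STERILITY 2 gene of pollen wall formation, had 83.3% and 75.5% upstream. In ACR3, an ACT domain protein gene, the values were 91.3% and 88.0%, and in DWF1, a sterol reductase of brassinosteroid synthesis, 92.6% and 87.1%. In the last 4 genes most transcripts therefore began upstream of the intron in both libraries.

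Genes with an annotated 5′ UTR intron had more reads than genes without. Here such an intron lies upstream of every annotated start codon of its gene. Genes whose 5′ UTR introns all fail this because of another transcript's start codon count as without. All 4327 nuclear protein-coding genes with such an intron (15.8% of 27444) were compared, whether or not the intron passed, because the read minimum itself selects deeply read genes. A read stands for 1 cDNA molecule, so depth was not divided by gene length, and the part of transcript length in it was not tested. Their median depth was 20.3 ± 0.785 RPM, against 8.13 ± 0.314 RPM in 23117 genes without (SD, n = 2), which are 5 reads and 2 reads per gene in each library. At least 1 read was found for 83.6% ± 1.63 of genes with and 61.6% ± 0.162 of genes without. The difference in the mean of log2(RPM + 1) was 1.19 ± 0.127. It is larger than the spread between replicates, and the exact sign-flip test gave its smallest possible p of 0.5.

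The size of this difference depended on the genes compared. Among genes with an annotated 5′ UTR, the medians were 20.3 ± 0.785 RPM with and 12.2 ± 0.471 RPM without such an intron, and among those that also have a coding intron 20.3 ± 0.785 and 14.3 ± 3.42 RPM. Among genes with a read in both libraries, 28.4 ± 1.10 RPM stood against 24.4 ± 0.942 RPM, and the difference on the log2(RPM + 1) scale was 0.14 ± 0.0872. These genes were chosen by their reads, and the medians differ by 1 read in each library.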

How the data were processed

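Per the labels and methods, the authors processed circular consensus reads of both libraries to full-length reads, aligned them to TAIR10 with minimap2 guided by annotated junctions, and wrote aligned structures with end labels. The deposited values are expected counts of reads per structure, as the authors' conversion gave them, in which reads with several alignments are split. They are not normalised. Introns, start codons and sequences were taken from RefSeq's TAIR10.1 annotation, and 0 read structures ran past a chromosome end. Reads were assigned to the gene of largest exonic overlap on the same strand, which gave 253011 and 239558 reads, and scaled to RPM. Structures with a masked gap over an intron were left out there. Per-intron tests used counts rounded to whole numbers, with an adjusted p threshold of 0.05, at least 10 covering reads (Fisher) or 6 discordant reads (McNemar), and were tested on simulated data. Analyses used Python 3.11.15, NumPy 2.4.6 and SciPy 1.17.1. The introns and gene lists were chosen with earlier results of these data known. Named introns are those of the listed genes and the extremes of reads, efficiency, length, alternative sites, start position and introns per gene.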

Additional observations from a re-analysis of the deposited data

How the results depend on the processing

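The number of qualifying introns, 1488, was 754 and 322 with at least 10 and 20 covering reads, and 1829 to 2159 with 1 replicate left out. Mean splicing efficiency of 5′ UTR introns, 93.4%, was 96.0% and 97.2% with those minimums, 93.8% with 20 nt covered, 95.3% with cap-labelled reads, 95.4% with cap and 3′ labels, 93.8% without masked structures, 96.6% with reads summed, and 92.1% to 92.3% with 1 replicate left out. Chosen after seeing the data, it was 92.7% with more than 0 informative reads, 94.2% with the most spliced qualifying intron of each group and 96.7% with introns exactly spliced in both libraries. The difference from coding introns stayed negative under every alternative, between -6.22 and -0.78 points. The difference in median length from coding introns, 189 nt, was 132 nt over all annotated introns and 133 nt from first coding introns. The excess of introns with alternative sites over coding introns, 17.2 points, was 20.6 points with at least 20 covering reads and, chosen after seeing the data, 8.38 points for the most spliced qualifying introns. The distance from start to 5′ splice site, 97 nt, was 95 nt for the most used start and 88.5 nt without the untemplated G. Starts upstream, 97.0%, were 96.4% over all cap-labelled reads and 96.8% to 97.2% with 1 replicate left out. Pairs called for the 5′ UTR intron, 110, were 63 with cap-labelled reads, 42 with both introns seen spliced (chosen after seeing the data) and 34 to 54 with 1 replicate left out. Pairs called for the coding intron, 47, were 9 with both introns seen spliced and 27 to 28 with 1 replicate left out. Why these values moved was not tested, beyond the fewer introns or reads that each setting leaves. Of 282 recomputed efficiencies of named introns, 277 stayed within the 95% binomial interval. Genes with a 5′ UTR intron were deeper under every alternative run. No paired analysis was possible because both libraries belong to 1 group.

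Depth limits single introns: with a median of 12 covering reads, an unspliced share of a few percent was not detectable. Introns of weakly expressed genes, and introns whose reads seldom reach the 5′ end, are missing from the 1488. For means, the exact sign-flip test over 2 libraries cannot go below p = 0.5, and p-values per intron measure the spread between reads of these libraries. Neighbouring sites a few nt apart depend on the alignment.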
